A study of Mus musculus with 8 samples.

Results

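The genes described here are 7 of the 24421 gene rows of a count table from mouse bone marrow neutrophils: Elane, Mpo, Prtn3, Ctsg, Ms4a3, Ctsc and Srgn. They were chosen by their symbols, as genes that serve the azurophil granule or the promyelocyte, and all 7 passed the filter on low counts. The neutrophils came from 8-week-old female C57BL/6 mice, either wild type (WT) or Padi4 knockout (KO). The KO mice lack exon 1 of Padi4 in all cells, and Padi4 encodes PAD4, the enzyme that turns arginine of histones and other proteins into citrulline. Neutrophils of each genotype were left unstimulated or given R848, an agonist of TLR7, at 1 µg/ml for 6 h, with 2 libraries in each of the 4 groups. The sample titles give 0 h for the unstimulated cells and the methods 6 h of culture, so every difference called an R848 response here may include the effect of culture. The methods say that samples were analysed in duplicate and the labels do not name mice, so the p-values measure the spread between libraries, which may be technical.

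Azurophil granules are the first granules that a developing neutrophil makes, at the promyelocyte stage, and mRNA of their serine proteases and of myeloperoxidase is known to decline as the cell matures, while the stored proteins remain. Neutrophil elastase (Elane), proteinase 3 (Prtn3) and cathepsin G (Ctsg) are made as inactive proenzymes, and cathepsin C (Ctsc) removes the dipeptide that keeps them inactive. Serglycin (Srgn) is the core of the proteoglycan on which the cationic granule proteins are packed, and elastase and myeloperoxidase also take part in the release of extracellular traps, a process that needs PAD4.

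On GRCm38 in the GENCODE annotation, Prtn3 (chr10:79874476-79883174) and Elane (chr10:79886247-79888215) are neighbours on the plus strand, 3072 bases apart. Mpo lies at chr11:87793581-87804413 and Ctsc at chr7:88278085-88310888 on the plus strand, and Ctsg at chr14:56099881-56102574, Ms4a3 at chr19:11629496-11640851 and Srgn at chr10:62493833-62527451 on the minus strand. The promoters of the 3 genes that fell after R848 in both genotypes, and of the 2 that rose in WT, are given here as the 250 bases before the RefSeq start, 5′ to 3′ on the strand of the gene, on GRCm38.p6. Capitals mark PU.1 letters (GAGGAA), MYB letters (TAACNG) and RUNX letters (TGTGGT) on either strand, and C/EBP letters (TTGCNNAA) were searched as well. PU.1, MYB, RUNX1 and C/EBP proteins are transcription factors of early myeloid cells.
Elane, chr10:79886062-79886311, plus strand: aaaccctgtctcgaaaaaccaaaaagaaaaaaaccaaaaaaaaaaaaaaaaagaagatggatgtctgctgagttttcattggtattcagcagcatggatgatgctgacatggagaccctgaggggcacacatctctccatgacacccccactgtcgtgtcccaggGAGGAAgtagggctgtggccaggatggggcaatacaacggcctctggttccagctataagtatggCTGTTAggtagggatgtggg
Mpo, chr11:87793534-87793783, plus strand: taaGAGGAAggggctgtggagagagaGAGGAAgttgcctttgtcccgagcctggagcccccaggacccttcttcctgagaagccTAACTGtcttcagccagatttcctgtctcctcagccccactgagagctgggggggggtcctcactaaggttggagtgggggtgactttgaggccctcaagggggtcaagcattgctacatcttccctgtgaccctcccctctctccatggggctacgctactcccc
Prtn3, chr10:79879417-79879666, plus strand: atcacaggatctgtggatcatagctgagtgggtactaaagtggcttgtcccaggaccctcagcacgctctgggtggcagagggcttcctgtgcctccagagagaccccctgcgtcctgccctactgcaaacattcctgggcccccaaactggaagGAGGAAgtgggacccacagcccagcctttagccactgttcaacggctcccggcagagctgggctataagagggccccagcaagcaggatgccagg
Ctsc, chr7:88277835-88278084, plus strand: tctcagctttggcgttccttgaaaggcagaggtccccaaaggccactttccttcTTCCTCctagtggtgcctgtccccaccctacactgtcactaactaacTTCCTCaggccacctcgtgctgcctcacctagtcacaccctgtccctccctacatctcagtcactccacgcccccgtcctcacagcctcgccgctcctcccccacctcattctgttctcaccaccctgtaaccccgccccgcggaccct
Srgn, chr10:62527446-62527695, minus strand: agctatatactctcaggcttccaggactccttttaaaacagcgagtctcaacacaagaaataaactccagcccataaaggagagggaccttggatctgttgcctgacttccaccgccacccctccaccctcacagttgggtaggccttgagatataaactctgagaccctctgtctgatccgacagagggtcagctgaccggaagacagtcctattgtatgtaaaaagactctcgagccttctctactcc

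The PU.1 letters were found in Elane, Mpo, Prtn3, Ctsg and Ctsc, and not in the windows of Ms4a3 or Srgn, of which the latter has 2 RefSeq starts and was searched at the one nearest its GENCODE start. Their first base, as read on the gene's strand, lay 85 bases before the start in Elane, 95 in Prtn3, 247 and 224 in Mpo, 216 in Ctsg, and 196 and 149 in Ctsc. MYB letters were found in Elane and Mpo, RUNX letters in Ctsg, and C/EBP letters in none of the 7. Among 32851 RefSeq promoters of the same length, 23.3% held the PU.1 letters, 19.8% the MYB letters, 14.0% the RUNX letters and 9.56% the C/EBP letters. RefSeq and GENCODE place the start of Prtn3 5191 bases apart, so its window belongs to the RefSeq start alone.

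Each library had between 562446 and 1177972 counts on genes, and the Padi4 KO libraries were on average 1.66 times as deep as the WT libraries. The 7 genes had between 18 and 774 counts in a library. Padi4, the targeted gene, had 590 and 527 counts in unstimulated WT, 40 and 54 in unstimulated KO, 166 and 234 in WT after R848, and 34 and 21 in KO after R848, so its level followed the labels. Of 8 neutrophil markers, 7 were in the table, and together they made up between 72601 and 101661 CPM (counts scaled to a library of equal size, here by the total on genes). The levels below are CPM scaled with edgeR's TMM factors, and adjusted p-values are from edgeR's quasi-likelihood test over 12254 genes. In bulk RNA, fewer cells that express a gene and less of its RNA in each cell cannot be told apart.

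Elane, which encodes neutrophil elastase, had 186 and 162 counts in unstimulated WT, 149 and 208 in unstimulated KO, 48 and 64 in WT after R848, and 58 and 45 in KO after R848. At 284 ± 5.55 CPM (SD, n = 2) it was highest in unstimulated WT, followed by unstimulated KO at 160 ± 12.4, WT after R848 at 106 ± 10.95 and KO after R848 at 46.4 ± 7.19. No 2 of the 4 groups overlapped.

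Prtn3, the gene of proteinase 3, had 163 and 153 counts in unstimulated WT, 159 and 253 in unstimulated KO, 49 and 64 in WT after R848, and 43 and 61 in KO after R848. The means were 258 ± 8.60, 182 ± 2.70, 107 ± 9.51 and 47.1 ± 12.6 CPM (SD, n = 2), in the same order of groups as for its neighbour Elane, and again without overlap. An antisense gene, Plppr3 (Lppr3 in the table), overlaps Prtn3 and had at most 24 counts. The kit does not mark strand, so reads of the overlap cannot be assigned. The same holds for Mpo and Ctsc, which overlap the antisense genes Gm11505 and Gm26522 in the annotation (not analysed here).

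Ctsg, which encodes cathepsin G, was less abundant, with 55 and 33 counts in unstimulated WT, 47 and 64 in unstimulated KO, 20 and 31 in WT after R848, and 32 and 30 in KO after R848. Its means were 71.0 ± 19.8, 49.8 ± 4.74, 47.8 ± 9.99 and 28.0 ± 0.607 CPM (SD, n = 2). Unstimulated WT lay above the other groups and KO after R848 below them, and unstimulated KO and WT after R848 overlapped.

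Mpo, the gene of the heme enzyme that makes hypochlorous acid, had 387 and 316 counts in unstimulated WT, 278 and 442 in unstimulated KO, 60 and 80 in WT after R848, and 47 and 60 in KO after R848. Its means of 572 ± 37.3, 318 ± 4.54, 132 ± 13.7 and 48.5 ± 9.47 CPM (SD, n = 2) did not overlap between any groups. The ratio of its highest to its lowest group mean was the largest among the 7 genes.

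Ms4a3, a membrane protein gene of granulocyte-monocyte progenitors, had 38 and 31 counts in unstimulated WT, 49 and 68 in unstimulated KO, 18 and 27 in WT after R848, and 22 and 21 in KO after R848. The means were 56.1 ± 3.69, 52.4 ± 4.28, 42.2 ± 7.86 and 19.4 ± 0.174 CPM (SD, n = 2). The unstimulated groups of both genotypes overlapped, and KO after R848 lay below the other 3 groups.

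Ctsc, which encodes the activating protease, ran the other way, with 26 and 20 counts in unstimulated WT, 100 and 157 in unstimulated KO, 40 and 43 in WT after R848, and 128 and 154 in KO after R848. It was lowest in unstimulated WT, at 37.4 ± 4.01 CPM (SD, n = 2), with 78.8 ± 3.81 in WT after R848. Both KO groups were higher than both WT groups, at 113 ± 0.612 CPM unstimulated and 128 ± 19.7 after R848, and overlapped each other.

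Srgn, the proteoglycan core gene, had 299 and 245 counts in unstimulated WT, 362 and 534 in unstimulated KO, 742 and 774 in WT after R848, and 699 and 641 in KO after R848. Its means were 443 ± 27.8, 398 ± 15.4, 1441 ± 100.3 and 605 ± 22.6 CPM (SD, n = 2). WT after R848 stood above all other groups, and KO after R848 above both unstimulated groups.

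**Figure D1:**
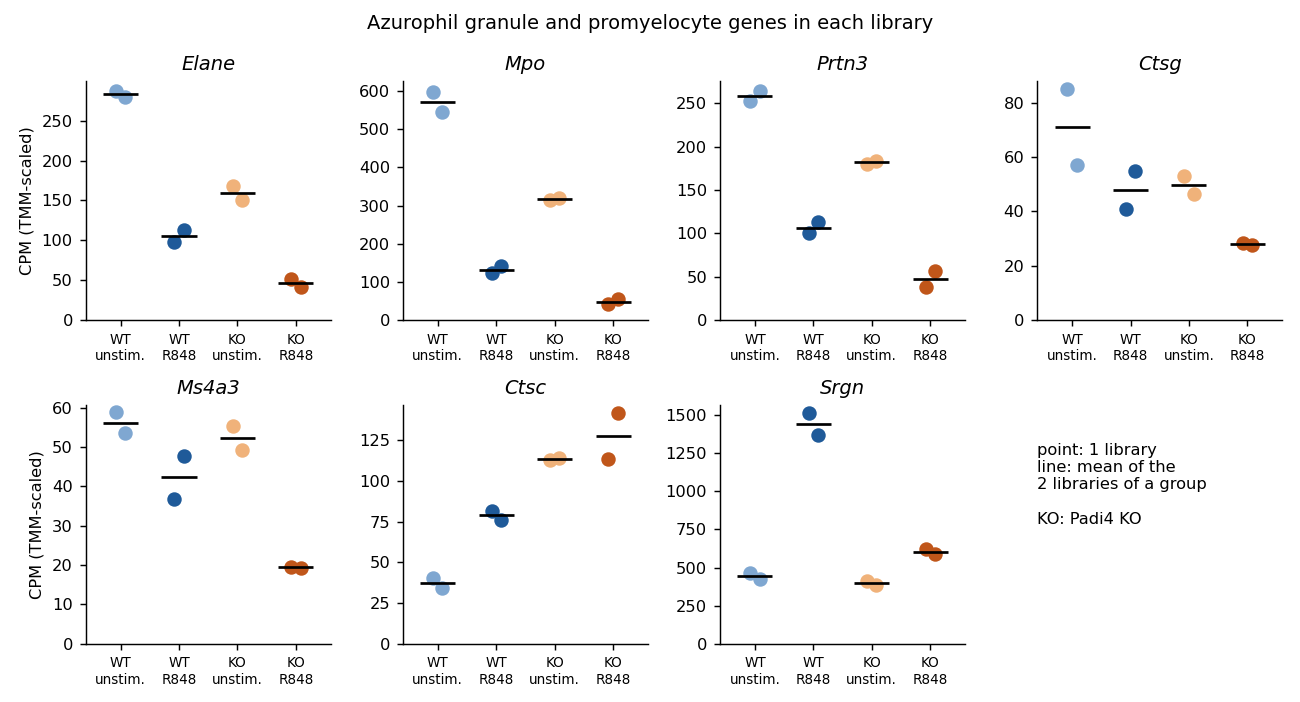
CPM scaled with TMM factors of the 7 genes (vertical axes, from 0) in the 4 groups (horizontal axes); each point is 1 library and each line the mean of 2. Elane, Mpo, Prtn3, Ctsg and Ms4a3 were lowest in Padi4 KO after R848, Ctsc was lowest in unstimulated WT, and Srgn was highest in WT after R848.

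Per kilobase of mRNA (RefSeq-linked transcripts of the annotation), the order of the 7 genes changed with the groups. In unstimulated WT, Elane led with 288 ± 5.65 CPM per kb (SD, n = 2), Srgn at 256 ± 16.1 and Prtn3 at 252 ± 8.39 overlapped, and Mpo followed at 208 ± 13.6. Ctsg at 70.9 ± 19.8 and Ms4a3 at 55.6 ± 3.66 overlapped, and Ctsc was last at 11.6 ± 1.24. In KO after R848, Srgn led with 350 ± 13.1 CPM per kb, Elane at 47.2 ± 7.31, Prtn3 at 46.0 ± 12.3 and Ctsc at 39.6 ± 6.11 overlapped from 1 gene to the next, and Mpo at 17.6 ± 3.44 overlapped with Ms4a3 at 19.2 ± 0.172. Ctsc thus went from the lowest of the 7 to a level that overlapped with those of Elane and Prtn3, whose products it activates, while Ctsg stood below it at 27.9 ± 0.606.

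The first comparison was the R848 response in WT. The 3 genes Elane, Prtn3 and Mpo fell and the 2 genes of processing and packing rose. Mpo fell 4.32-fold (log2 fold change −2.11, SE 0.13, adjusted p = 2.21e-55), Elane 2.67-fold (−1.42, SE 0.16, adjusted p = 8.52e-18) and Prtn3 2.41-fold (−1.27, SE 0.16, adjusted p = 7.07e-14). Srgn rose 3.25-fold (1.70, SE 0.09, adjusted p = 3.29e-75) and Ctsc 2.09-fold (1.07, SE 0.26, adjusted p = 0.000436). To be called, a response had to exceed 2-fold with an adjusted p under 0.1. Ctsg, at −0.57 (SE 0.26, adjusted p = 0.0903), missed the fold, and Ms4a3, at −0.40 (SE 0.28, adjusted p = 0.340), missed both. When a library was left out, Ctsg ranged from −0.81 to −0.24 and Ms4a3 from −0.51 to −0.098. The 3 lower and 2 higher calls among 7 genes stand beside 10.8% lower and 7.17% higher among the 12254 genes tested, and 10.7% lower and 13.1% higher among the 4156 genes with at least 30 counts on average, as all 7 had. With library size alone, the calls among all genes turned from 879 higher and 1328 lower to 630 and 2106. The median log2 fold change of the 7 was −0.57, and that of the 6912 genes with at least 10 counts −0.07. The Ctsc call was lost without WT unstimulated replicate 2, at 0.97 (adjusted p = 0.0137), with library size alone, at 0.76 (0.0177), and with scaling to 12 genes of specific and gelatinase granules, at 0.90 (0.00408), each time through the fold.

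In Padi4 KO, 4 of the 7 genes fell after R848 and none rose past the fold. Mpo fell 6.56-fold (log2 fold change −2.71, SE 0.14, adjusted p = 3.30e-83), Prtn3 3.86-fold (−1.95, SE 0.15, adjusted p = 1.06e-34), Elane 3.39-fold (−1.76, SE 0.16, adjusted p = 7.41e-27) and Ms4a3 2.65-fold (−1.41, SE 0.25, adjusted p = 1.54e-07). Ctsg, at −0.81 (SE 0.23, adjusted p = 0.00233), and Srgn, at 0.61 (SE 0.09, adjusted p = 3.09e-11), passed the false discovery rate without reaching 2-fold, and Ctsg was called lower with library size alone (−1.18, adjusted p = 1.86e-06) and with scaling to 12 later granule genes (−1.08, adjusted p = 1.84e-05). The Srgn value was as low as 0.23 among the alternatives. Ctsc, at 0.17 (SE 0.14, adjusted p = 0.406), passed neither, and its sign turned to −0.21 with library size alone and to −0.12 without KO R848 replicate 2. Among all genes tested, 8.84% were called lower and 8.07% higher, and among those with at least 30 counts 5.87% and 13.1%. With library size alone, the calls among all genes turned from 989 higher and 1083 lower to 624 and 2072. The median of the 7 was −1.41, and that of the genes with at least 10 counts 0.08.

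The difference of response, KO minus WT, was negative for all 7 genes. It passed an adjusted p of 0.1 for Srgn (log2 −1.09, SE 0.13, adjusted p = 6.65e-15), Ctsc (−0.90, SE 0.30, adjusted p = 0.0703), Prtn3 (−0.68, SE 0.24, adjusted p = 0.0888) and Mpo (−0.60, SE 0.21, adjusted p = 0.0977). For Srgn this was a smaller rise in KO than in WT, for Ctsc a rise in WT and no called change in KO, and for Prtn3 and Mpo a larger fall. Ms4a3 had −1.01 (SE 0.38, adjusted p = 0.148), Elane −0.34 (SE 0.24, adjusted p = 0.583) and Ctsg −0.24 (SE 0.35, adjusted p = 0.861), and were not called. The Elane difference ranged from −0.76 to −0.29 when a library was left out. Ms4a3 was called with RLE (relative log expression) factors (−1.16, adjusted p = 0.0848), with a stricter filter on low counts (−1.01, 0.0971) and without WT R848 replicate 1 (−1.45, 0.0414). Among all genes tested, 1.26% were called lower and 3.45% higher, and among those with at least 30 counts 3.20% and 8.37%. The split of 423 higher and 154 lower became 160 and 233 with RLE factors and 255 and 170 with library size alone, and all 7 genes were negative under each of these scalings. The Srgn difference was called with every alternative run. Those of Mpo, Prtn3 and Ctsc were lost with DESeq2 (adjusted p between 0.127 and 0.204) and when any of the 4 unstimulated libraries was left out (between 0.102 and 0.279), and those of Mpo and Prtn3 also without WT R848 replicate 2 (0.118 and 0.106) or KO R848 replicate 1 (0.218 and 0.260). The differences themselves stayed between −1.04 and −0.54 for Mpo and between −1.20 and −0.65 for Prtn3 when a library was left out, and were over 1.5 times as large without WT R848 replicate 1 (−0.97 and −1.04) or KO R848 replicate 2 (−1.04 and −1.20). With the replicate number as a block, Mpo (adjusted p = 0.10004) and Prtn3 (0.106) were no longer called, and at a false discovery rate of 0.05 the Srgn difference alone was called.

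**Figure D2:**
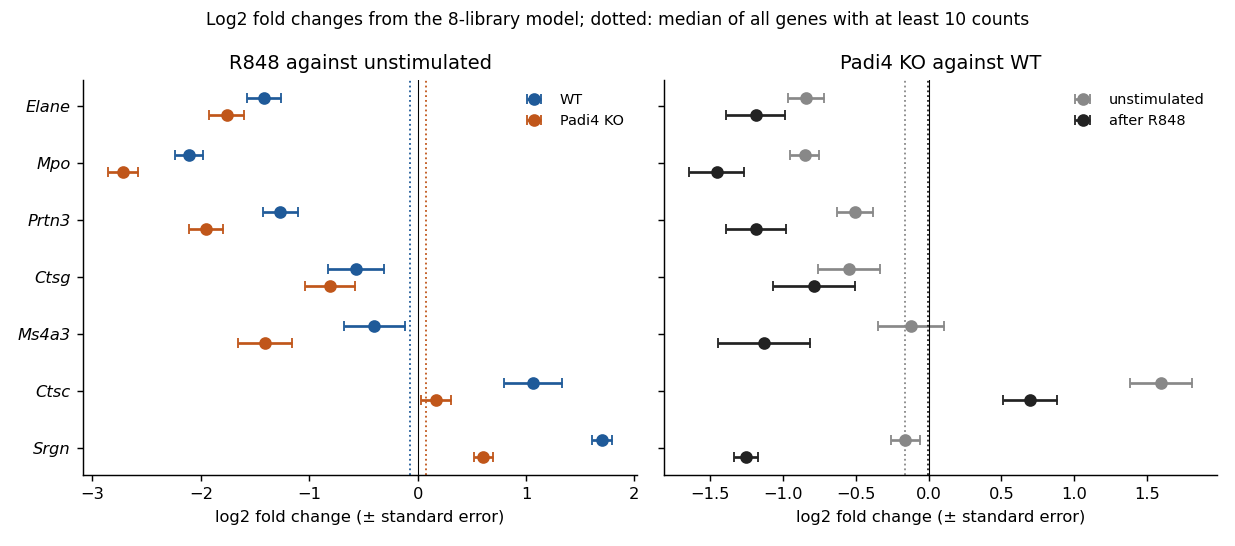
Log2 fold changes (horizontal axes) with standard errors of the 7 genes, for R848 against unstimulated in WT and in Padi4 KO (left) and for Padi4 KO against WT before and after R848 (right); dotted lines mark the median of all genes with at least 10 counts. After R848, all genes except Ctsc were lower in KO than in WT. Without stimulation, scaling by library size turned the sign of Ms4a3 and Srgn, and scaling to later granule genes also that of Prtn3 and Ctsg.

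Without stimulation, Mpo and Elane were lower in Padi4 KO than in WT, by 1.80-fold (log2 fold change −0.85, SE 0.10, adjusted p = 8.44e-16) and 1.79-fold (−0.84, SE 0.12, adjusted p = 7.85e-10). Ctsg (−0.55, SE 0.21, adjusted p = 0.0547) and Prtn3 (−0.50, SE 0.12, adjusted p = 0.000638) were lower as well, and Ctsc was 3.02-fold higher (1.59, SE 0.21, adjusted p = 9.57e-12). All 4 lower calls ended with scaling to the 12 later granule genes, where Mpo had −0.20 (adjusted p = 0.120) and Elane −0.19 (adjusted p = 0.258). On that scale the median of the genes with at least 10 counts was 0.49. Srgn, at −0.16 (SE 0.10, adjusted p = 0.280), and Ms4a3, at −0.12 (SE 0.23, adjusted p = 0.794), were not called. The background was high here: 14.4% of all genes tested were called lower and 9.55% higher, and among those with at least 30 counts 34.9% were lower and 10.8% higher, so a lower call was common for genes of this abundance. With library size alone the split of all genes went from 1170 higher among 2933 calls to 1901 higher among 2462, the median of the genes with at least 10 counts from −0.16 to 0.12, and Prtn3 (−0.21, adjusted p = 0.269) and Ctsg (−0.26, adjusted p = 0.488) lost the call. With DESeq2 the calls of Ctsg (adjusted p = 0.513) and Prtn3 (0.178) were lost. The Ctsg call was also lost without any 1 of 6 libraries, all but WT unstimulated replicate 2 and KO unstimulated replicate 1, with the smallest value of −0.21 without WT unstimulated replicate 1.

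After R848, 6 of the 7 genes were lower in Padi4 KO than in WT and Ctsc was higher. Mpo was 2.74-fold lower (log2 fold change −1.45, SE 0.19, adjusted p = 1.66e-12), Srgn 2.38-fold (−1.25, SE 0.08, adjusted p = 8.93e-50), Elane 2.28-fold (−1.19, SE 0.20, adjusted p = 2.74e-07), Prtn3 2.27-fold (−1.18, SE 0.20, adjusted p = 2.48e-07), Ms4a3 2.19-fold (−1.13, SE 0.31, adjusted p = 0.00439) and Ctsg 1.72-fold (−0.78, SE 0.28, adjusted p = 0.0410). Ctsc was 1.62-fold higher (0.70, SE 0.18, adjusted p = 0.00217). Among all genes tested, 7.81% were called lower and 9.46% higher, and among those with at least 30 counts 20.1% and 11.5%. The split of 1159 higher and 957 lower among all genes became 990 and 1359 with RLE factors and 1870 and 417 with library size alone, where Ctsg lost the call (−0.57, adjusted p = 0.174). The median of the 7 was −1.18, and that of the genes with at least 10 counts was −0.0019. With DESeq2 Ctsg (adjusted p = 0.178) and Ctsc (0.202) were not called. Leaving out WT R848 replicate 2 ended the calls of Ctsg, Ms4a3 and Ctsc, and leaving out KO R848 replicate 2 that of Ctsc. When a library was left out, Ctsc ranged from 0.43 to 0.74, Ctsg from −1.11 to −0.62 and Ms4a3 from −1.44 to −0.99.

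Since the genotypes differed in many neutrophil genes, the 7 genes were also set against 12 genes of later granules in the same library, which needs no scaling between libraries. These are the specific and gelatinase granule genes, such as Ltf (lactoferrin), Camp (cathelicidin), Ngp and Mmp8, which neutrophils make after the azurophil stage. All 12 were lower in unstimulated KO and 10 of 12 after R848, with medians of −0.57 and −0.52, and with library size alone 9 and 8 were lower and 1 was higher after R848. Among all genes tested 14.4% and 7.81% were lower in these comparisons under TMM, and among those with at least 30 counts 34.9% and 20.1%. Chil3 was lower by 1.09 and 1.14 on the log2 scale, which is the strongest p of the list (adjusted p = 6.50e-63 and 5.13e-68).

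Per 10000 counts on the 12 later granule genes, the sum of Elane, Mpo, Prtn3, Ctsg and Ms4a3 was 136 and 132 in unstimulated WT and 131 and 127 in unstimulated KO, a ratio of KO to WT means of 0.965. After R848 it was 37.7 and 45.7 in WT and 25.3 and 27.8 in KO, a ratio of 0.637. Mpo holds the largest part of this sum in the unstimulated libraries, and Ms4a3 alone had 6.23 and 5.87 in unstimulated WT and 9.40 and 8.37 in unstimulated KO, a ratio of 1.47. Relative to later granule genes, the sum thus differed little between the genotypes before R848 and was lower in KO after it, while Ms4a3 was higher in KO before it. A fit scaled to the 12 genes was chosen after the data were seen. Genes with at least 10 counts had a median there of 0.49 without stimulation and 0.54 after R848. Without stimulation, Elane and Mpo were no longer called, Prtn3 (0.15) and Ctsg (0.11) changed sign, and Ms4a3 (0.53, adjusted p = 0.0535), near that median, was called higher. After R848, Mpo (−0.91, adjusted p = 2.41e-05), Elane (−0.64, adjusted p = 0.00795) and Prtn3 (−0.64, adjusted p = 0.00781) were still called lower, and Ctsg (−0.24, adjusted p = 0.546) and Ms4a3 (−0.58, adjusted p = 0.141) were not.

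Ctsc per 10000 later granule counts was 4.27 and 3.79 in unstimulated WT, 19.2 and 19.3 in unstimulated KO, 7.74 and 7.38 in WT after R848, and 16.0 and 19.7 in KO after R848. The KO libraries thus stood above all WT libraries on this scale as well. Srgn had 49.1 and 46.4 in unstimulated WT, 69.4 and 65.7 in unstimulated KO, 144 and 133 in WT after R848, and 87.6 and 82.1 in KO after R848. On this scale unstimulated KO was above unstimulated WT for Srgn, against the direction under TMM, while the order after R848 was kept. In the fit scaled to these genes, the Srgn value without stimulation, 0.50, was near the median of genes with at least 10 counts, 0.49.

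**Figure D3:**
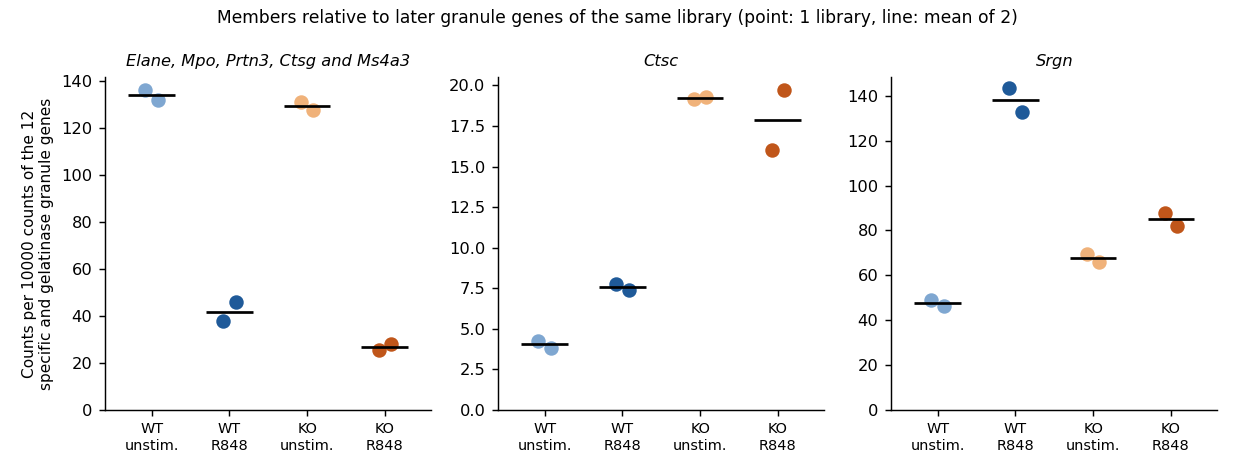
Counts per 10000 counts of 12 specific and gelatinase granule genes (vertical axes, from 0) for the sum of Elane, Mpo, Prtn3, Ctsg and Ms4a3, for Ctsc and for Srgn; each point is 1 library and each line the mean of 2. The 5-gene sum was between 127 and 136 in all 4 unstimulated libraries and between 25.3 and 45.7 after R848.

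Within a library, the share of each gene among the counts on the 7 does not depend on scaling. Elane, Mpo, Prtn3, Ctsg and Ms4a3 together took 71.8% and 72.4% in unstimulated WT, 59.6% and 60.0% in unstimulated KO, 20.0% and 24.6% in WT after R848, and 19.6% and 21.4% in KO after R848. Srgn took 25.9% and 25.5%, 31.6% and 30.9%, 75.9% and 71.5%, and 67.9% and 63.3% in the same order. Before R848 most counts fell on the proteases and the peroxidase, and after it on Srgn. Ctsc per count of the 3 serine protease genes that depend on it (Elane, Prtn3 and Ctsg) was 0.0644 and 0.0575 in unstimulated WT, 0.282 and 0.299 in unstimulated KO, 0.342 and 0.270 in WT after R848, and 0.962 and 1.13 in KO after R848. Mpo per Elane was between 1.87 and 2.13 in the 4 unstimulated libraries, 1.25 in both WT libraries after R848, and 0.810 and 1.33 in KO after R848. Ctsg per Elane was between 0.204 and 0.315 without R848 and between 0.417 and 0.667 after it, so the genes of 1 granule did not fall in step.

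**Figure D4:**
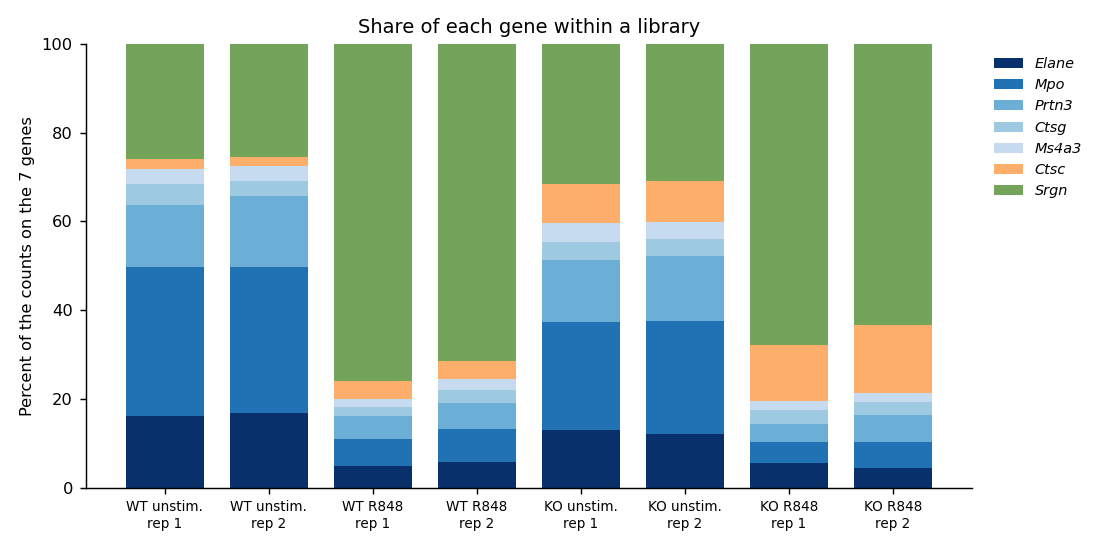
Percent of the counts on the 7 genes (vertical axis, 0 to 100) that fell on each gene, with 1 bar for each of the 8 libraries. The share of Srgn rose from between 25.5% and 31.6% in the unstimulated libraries to between 63.3% and 75.9% after R848, and the share of Ctsc was highest in Padi4 KO after R848.

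Across the 8 libraries, log2 CPM of Elane, Mpo, Prtn3, Ctsg and Ms4a3 correlated with each other with Pearson r between 0.89 and 0.99, Ctsc with these 5 between −0.79 and −0.60, and Srgn with them between −0.46 and −0.19. The 8 points fall into 4 groups and share their scaling, so the values describe group patterns only. The same measure was taken over 2914 candidate genes with at least 50 counts on average. Elane, Mpo, Prtn3, Ctsg, Ms4a3, Ctsc and Srgn were themselves left out of the candidates. Mpo and Prtn3 had r = 0.993 with each other, above that of any candidate with either gene. Among the candidates, the genes most like Elane were Kdm7a (r = 0.991), H3f3b (0.988) and Ipcef1 (0.987). Those most like Mpo were Adpgk (0.991), Hsp90b1 (0.990) and Syne2 (0.989). Syne2 was also near Prtn3 (0.990), beside Slk (0.991) and F5 (0.987). The genes most like Srgn were Zfp608 (0.997), Trib1 (0.993) and Trem1 (0.993), a receptor that amplifies inflammatory signals. Those most like Ctsc were Ms4a6c (0.965), which is in the monocyte list below, Lrrc59 (0.946) and G3bp1 (0.942). None of these nearest genes was in the lists of azurophil or promyelocyte genes, which was partly set by the choice of candidates. Listed genes such as Prss57, Nkg7, Kit and Gfi1 averaged under 50 counts, while others, such as Lyz2, Fcnb and Cebpe, were above that limit. With Mpo, Prtn3 and the other genes compared also left out, the absence cannot show whether they follow genes of their own program.

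The row Prss57, a serine protease of the azurophil granule encoded near Prtn3 and Elane, had 13 and 12 counts in unstimulated WT, 14 and 21 in unstimulated KO, 3 and 2 in WT after R848, and 1 and 4 in KO after R848. It fell in both genotypes (adjusted p = 0.00645 in WT and 1.99e-05 in KO). Cfd, 2637 bases from Elane in RefSeq and also part of this gene cluster, had 0 counts in all 8 libraries, which allows up to between 2.55 and 5.33 CPM at 3 counts a library.

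Other genes of azurophil granules did not move as a block. Of 16 listed, 15 were tested. In unstimulated KO, 6 were lower than in WT, among them Lyz2 (log2 −0.56), Cd63 (−0.93) and Hexa (−0.73), and 2 were higher, Gaa (1.13) and Ctsz (0.43). The shares among all genes were 14.4% lower and 9.55% higher, and 34.9% and 10.8% among those with at least 30 counts, so the lower calls were near the share of abundant genes. After R848, 2 were lower, among them Lyz2 (−0.47), and 2 were higher, Ctsa (1.20) and Ctsb (0.24). The shares there were 7.81% lower and 9.46% higher among all genes, and 20.1% and 11.5% among those with at least 30 counts, so these calls were near them. The medians of the 15 genes were −0.40 and −0.07, and with library size alone the calls were 4 higher and 3 lower without stimulation and 5 higher and 1 lower after R848. Scaled to the later granule genes they were 7 and 8 higher and 0 lower. Lyz2 has a close copy in Lyz1, so its reads could be split. In the R848 responses the cysteine and aspartic proteases Ctsd, Ctsb and Ctsz rose in both genotypes, Ctsd by 1.73 on the log2 scale in WT and 2.07 in KO. The sugar-cleaving and sulfate-cleaving lysosomal enzymes Man2b1 and Arsb fell in both, Man2b1 by 1.59 in WT and 1.16 in KO.

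Among 14 further genes of progenitors and promyelocytes, of which Prss57 is also counted among the azurophil granule genes above, 5 were lower and 1 higher in unstimulated KO, with a median of −0.61, and 3 were lower after R848, with a median of −0.45. Among all genes tested 14.4% and 7.81% were lower in these comparisons, and among genes with at least 30 counts 34.9% and 20.1%. The lower calls of this list were more frequent than the former shares and near the latter. Listed genes such as Prss57, Nkg7, Kit and Hgf had under 30 counts in every library, so neither share is a close match. Gfi1, a repressor needed for neutrophil development, was lower by 1.31 (adjusted p = 0.000170) and 1.30 (0.00825), from at most 33 counts. Fcnb, ficolin B, was lower by 0.78 and 0.88, and Cebpe, the factor that drives the later granule genes, was lower by 0.88 without stimulation (adjusted p = 4.38e-10) and had −0.30 after R848 (0.359). Plac8 was higher without stimulation (0.47, adjusted p = 0.00274) and is the gene of this list with a called difference of response (−0.77, adjusted p = 0.00496). Scaled to the later granule genes, 1 gene was called in each direction in both comparisons. In the R848 responses of this list, 3 fell and 1 rose in WT and 4 fell and 1 rose in KO, beside 10.8% and 8.84% lower among all genes tested. The genes called lower became 8 and 10 with library size alone and 6 and 8 with scaling to the later granule genes. Cebpe fell by 1.48 in WT and had −0.90 in KO (adjusted p = 6.49e-09), which missed only the fold, and Cebpa, which starts the granulocyte program, rose by 1.06 in WT and 1.33 in KO; with library size alone no gene of the list was called higher in either genotype.

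Of 14 genes for folding, sorting and release of granule proteins, 4 were lower and 1 higher in unstimulated KO, with a median of 0.05, and 2 were lower after R848, with a median of −0.02. These lower calls lay between the shares among all genes (14.4% and 7.81%) and among genes with at least 30 counts (34.9% and 20.1%). Lyst, which is mutated in Chediak-Higashi syndrome with its giant granules, was lower in both (−0.66, adjusted p = 1.12e-10, and −0.35, adjusted p = 0.00444), as was Rab27a, a GTPase of granule release (−0.49 and −0.42). After scaling by library size the split turned to 6 higher and 1 lower without stimulation and 2 higher and 0 lower after R848, and to 9 and 10 higher and 0 lower with scaling to the later granule genes. Only Unc13d was called in an R848 response of this list, in WT (−1.20, adjusted p = 1.00e-13). Among all genes tested, 10.8% were called lower and 7.17% higher in the WT response, and 8.84% and 8.07% in the KO response.

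Of 7 protease inhibitor genes, 6 were tested, and 3 were lower in unstimulated KO and 2 after R848, where 34.9% and 20.1% of genes with at least 30 counts were lower and 14.4% and 7.81% of all genes. Serpinb1a, which inhibits elastase, proteinase 3 and cathepsin G, was lower by 0.68 (adjusted p = 2.73e-12) and 0.65 (2.40e-07), and Slpi, a secreted elastase inhibitor, by 0.57 and 0.51. Scaled to the later granule genes, none of the 6 was called lower, and 1 was higher without stimulation and 2 after R848. In the R848 responses Slpi rose by 1.35 in WT and 1.42 in KO and Cstb, cystatin B, by 1.85 and 2.10, while Serpinb6a fell by 1.70 and 1.24.

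Markers of other cells moved with the genotype. Summed by library total, 8 monocyte markers had between 1472 and 1594 CPM in unstimulated WT, 2215 and 2226 in unstimulated KO, 1334 and 1510 in WT after R848, and 1859 and 1904 in KO after R848. In unstimulated KO, 6 of the 8 were higher, among them F13a1 (1.08), Ccr2 (1.56) and Ms4a6c (1.38), and Ly6c2 was lower (−0.27), a call absent with library size alone. Among all genes tested 9.55% were higher there, and among those with at least 30 counts 10.8%. Monocytes are known to express Ctsc. By the methods, the magnetic isolation gave CD11b+ Ly6G+ cells at high purity, and monocytes lack Ly6G. The part of monocytes in the Ctsc difference was not tested. Of 9 erythroid markers, 8 were in the table, with between 37.3 and 42.1 CPM in sum in unstimulated WT, 468 and 476 in unstimulated KO, 9.83 and 11.96 in WT after R848, and 750 and 777 in KO after R848, and Hbb-b1 and Hba-a1 at 0 throughout. The 8 markers of dividing cells had between 739.5 and 939 CPM in unstimulated WT, 1212 and 1262 in unstimulated KO, 457 and 460.5 in WT after R848, and 906 and 916 in KO after R848. Stromal and endothelial markers (8) had between 219 and 251 CPM in unstimulated WT, 596 and 749 in unstimulated KO, and between 35.9 and 51.1 after R848. The 11 markers of eosinophils, basophils and mast cells, which also pack proteases on serglycin, had between 19.4 and 65.5 CPM in all groups, with Cma1, Tpsb2 and Il5ra at 0, and none was called in a genotype comparison by edgeR. The 8 markers of B and T cells had between 20.3 and 23.1 CPM in unstimulated WT, 9.77 and 11.8 in unstimulated KO, and between 8.20 and 20.3 after R848, with Cd3e at 0. Of the 5 tested, Cd3d was lower in unstimulated KO (−2.57, adjusted p = 0.00253), from at most 9 counts. The sum of the neutrophil markers was lower in KO, with between 96571 and 101256 CPM in unstimulated WT and 79282 and 81289 in unstimulated KO. Of the 7 markers tested, 6 were called lower without stimulation, beside 14.4% of all genes and 34.9% of those with at least 30 counts. With library size alone, 5 were called lower and 2 had positive values without stimulation. After R848, 4 were then called lower and 2 higher. The part of these differences in those of the 7 genes was not tested.

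**Figure D5:**
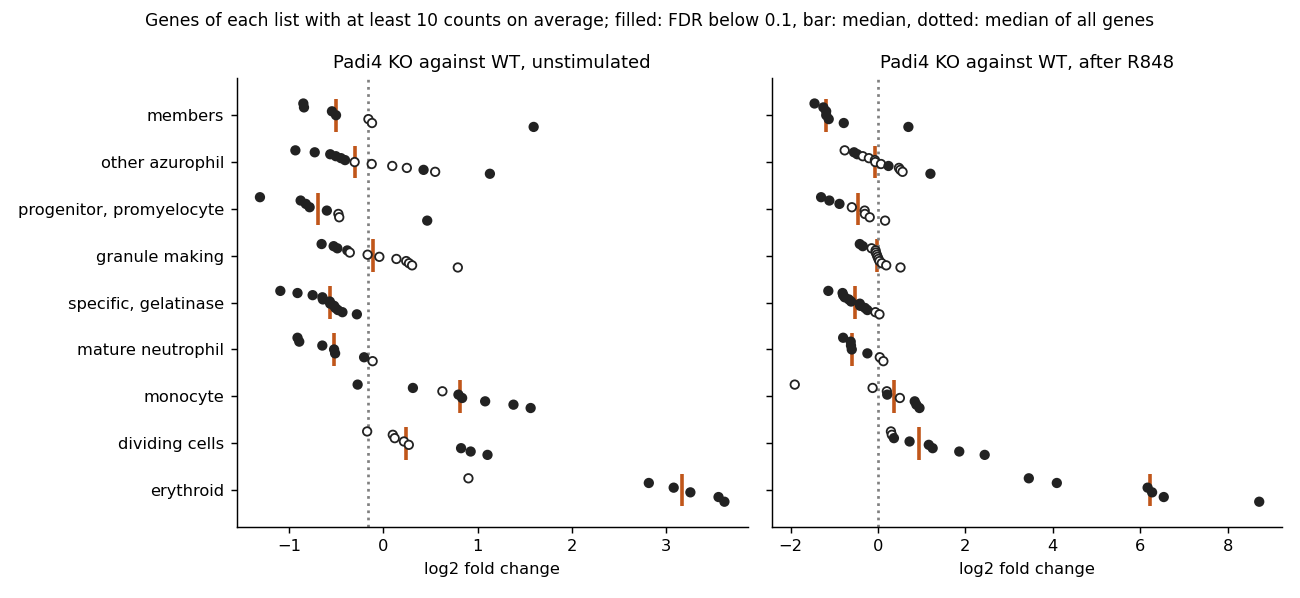
Log2 fold changes of Padi4 KO against WT (horizontal axes), without stimulation (left) and after R848 (right), for each gene with at least 10 counts on average in 9 lists. Filled points passed a false discovery rate of 0.1, orange bars mark list medians and dotted lines the median of all genes; under TMM scaling the specific and gelatinase granule genes lay mostly below 0 and the erythroid markers above 0, and scaling to the later granule genes moved the median of all genes to 0.49 and 0.54.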

How the data were processed

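RNA was sequenced from magnetically isolated bone marrow neutrophils. Per the methods and the submitters' processing notes, the authors checked reads with FastQC 0.11.7, trimmed them with cutadapt 1.16, removed low-quality reads with the FASTX toolkit, mapped them to mm10 with STAR 2.5.3a and counted them on genes with HTSeq 0.6.1p1. The deposited values are raw counts per gene symbol, not normalized; which annotation was used, and whether counting used strand, is not given in the sources used here. Between 10.6% and 13.0% of a library's entries fell on the 5 summary lines of HTSeq, which were left out.

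Genes with at least 1 count in at least 2 libraries were fitted in 1 model of 4 group means with edgeR 4.0.16 (R 4.3.3, limma 3.58.1; TMM factors, robust quasi-likelihood test), with Benjamini-Hochberg adjustment over 12254 genes. Responses needed a false discovery rate under 0.1 and over 2-fold, other contrasts the rate alone. SE is the absolute log2 fold change over the square root of F. DESeq2 1.42.0 and other filters, scalings, a replicate block and leaving out each library were alternatives. In simulated counts for the WT response (11909 genes), edgeR recovered 183 of 200 genes changed 4-fold, with 6 false calls. Chi-square per degree of freedom between the libraries of a group was 1.13 in unstimulated WT, 1.05 in unstimulated KO and 1.16 in KO after R848. These lie close to counting noise alone, while WT after R848 had 1.67. The common coefficient of variation beyond counting noise was 4.68% in edgeR. The p-values thus rest on a small spread, which may be technical. A floor of 3 counts was between 2.55 and 5.33 CPM, and covers counting error only.

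The 7 genes and all gene lists were chosen with earlier results of these data known. The genes named besides them are Padi4, list members called in a comparison (examples by smallest p), and the 3 genes nearest in pattern; Cfd is named by its position beside Elane, after its values were seen. The background of genes with at least 30 counts and the scaling to 12 later granule genes were chosen after seeing the data. Positions are from GENCODE M21 and promoters from RefSeq, with all 7 genes matched. The values of 1 listed gene are not reported here.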

Additional observations from a re-analysis of the deposited data

Results flagged for a closer look

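The R848 response differed between the genotypes, by the interaction term of the edgeR model, for 4 of the 7 genes, all lower, beside 1.26% of all genes tested called lower and 3.45% higher (3.20% and 8.37% of those with at least 30 counts on average). With DESeq2 only the Srgn difference was called. The difference, KO minus WT, was −1.09 on the log2 scale for Srgn, −0.90 for Ctsc, −0.68 for Prtn3 and −0.60 for Mpo. After R848, Srgn had 1512 and 1370 CPM in the WT libraries and 621 and 589 in the KO libraries. Groups of 2 libraries could not be tested for a library that stood apart from the rest.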

How the results depend on the processing

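Of 560 values of single genes under the alternatives, 491 kept their direction and their side of the threshold, 50 lost the call, 5 gained it and 14 changed sign. Calls among the 7 genes for the difference of response fell from 4 to 1 with DESeq2 and at a false discovery rate of 0.05, to 2 with the replicate block, and to between 1 and 5 when a library was left out. Without stimulation, calls fell from 5 to 3 with DESeq2, to 3 with library size alone and to 3 (3 higher, 0 lower) with scaling to the 12 later granule genes. After R848 they ranged from 4 to 7 when a library was left out. Higher calls in the WT response fell from 2 to 1, and lower calls in the KO response went from 4 to 5, with library size alone and with scaling to later granule genes. Ctsc in the KO response had −0.21 with library size alone, −0.11 with scaling to later granule genes and between −0.12 and 0.18 when a library was left out. Without stimulation, library size alone gave 0.17 for Ms4a3 and 0.13 for Srgn, and the scaling to later granule genes 0.53 for Ms4a3, 0.50 for Srgn (adjusted p = 6.04e-06), 0.15 for Prtn3 and 0.11 for Ctsg. The median of genes with at least 10 counts was 0.12 and 0.49 in these fits. When a library was left out, Ms4a3 without stimulation ranged from −0.18 to 0.027, and the difference of response of Ctsg from −0.70 to 0.0076. The cause of these changes was not tested. Among all genes, the difference of response had 577 calls, against 125 with DESeq2 and 268 to 332 without WT unstimulated replicate 1, WT R848 replicate 1 or either KO R848 library. Without stimulation there were 2933 calls, against 1061 with DESeq2, 1944 without WT unstimulated replicate 1 and 4575 with scaling to later granule genes; after R848 there were 2116, against 1008 and 4798 with DESeq2 and that scaling, and in the KO response 2072, against 1289 with DESeq2. Replicate numbers did not pair the libraries, as the deviations of same-numbered libraries correlated between −0.0089 and 0.035 over 2919 genes; apart from the calls of Mpo and Prtn3 lost from the difference of response, the replicate block changed no call of the 7 genes. Depth limits Ctsg, Ms4a3 and, in the WT libraries, Ctsc most. Ms4a3 had as few as 18 counts in a library, and Ctsg and Ctsc as few as 20.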
